A study of Homo sapiens with 6 samples.

Results

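Cadherins are calcium-dependent adhesion molecules whose extracellular repeats bind a cadherin on the neighbouring cell. Here the cadherins, protocadherins and desmosomal cadherins were followed in OVCAR3, a cell line from an ovarian adenocarcinoma, after knockdown of NUF2, a kinetochore protein needed for attachment of chromosomes to spindle microtubules. The genes were taken by symbol, as CDH or PCDH genes with a number or a cluster letter, DSG1 to DSG4 and DSC1 to DSC3, and 96 of the 19973 genes listed matched. Polyadenylated RNA was sequenced in 3 libraries of cells that carried a non-targeting hairpin (shNC, genotype given as WT) and in 3 libraries of cells that carried a hairpin against NUF2 (shNUF2). The hairpin against NUF2 was cloned into a plasmid with puromycin resistance. The study described stable lines, and whether these libraries came from them, from how many clones and from separate cultures was not given in the sources used here, so p-values measured only the spread between the libraries, which may be technical.

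Classical cadherins bind beta-catenin and p120-catenin through their cytoplasmic tail, and alpha-catenin links that complex to actin at the adherens junction. Desmosomal cadherins, the desmogleins and desmocollins, bind plakoglobin and plakophilins, which desmoplakin ties to keratin filaments. Protocadherins lack the classical catenin-binding tail, and most of them sit in the alpha, beta and gamma clusters on chromosome 5, where each promoter serves its own variable exon and single neurons use different sets. In epithelial tumours, loss of E-cadherin and gain of N-cadherin are the usual marks of an epithelial-to-mesenchymal transition.

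Libraries held 13057534 to 16995452 counted reads, and NUF2 itself checked the labels. NUF2 had normalised read counts of 63.52, 68.58 and 63.48 CPM (reads scaled to the library size by TMM) with shNC and of 20.85, 22.31 and 25.53 CPM with shNUF2, a log2 fold change of -1.51 (SE 0.08). Of 11 markers of epithelial ovarian carcinoma, 8 had at least 10 reads in a library, among them KRT7, KRT8, MUC16 and PAX8. EPCAM had 44 to 91 reads, KRT19 1 to 8, WT1 0 to 7, and CLDN3 had 0 reads in every library, so these markers were low or absent for cells labelled as ovarian cancer cells.

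A total of 23 of the 96 genes had enough reads to be tested, 63 stayed under 10 reads in every library, and 16 of those 63 had no read at all. The highest read count of a gene that was not tested was 21, in CDH12. Expression was compared by the edgeR quasi-likelihood test. A gene was called a differentially expressed gene (DEG) when its log2 fold change was beyond 1 and its unadjusted p under 0.05, and it was said to rise or fall when its Benjamini-Hochberg adjusted p over the 12874 genes tested was under 0.05. The study gave its thresholds as fold changes without naming a scale, and they were read here as log2 values. With shNUF2, 6 members were DEGs with higher expression (26.1% of those tested, against 9.41% of all genes tested) and 6 were DEGs with lower expression (26.1%, against 4.16%). In all, 9 members rose (39.1%, against 33.9% of all genes) and 7 fell (30.4%, against 33.8%), so those shares were near the background. CDH15 and CDH5 passed the filter on low counts through the shNUF2 libraries alone and PCDHB11 through the shNC libraries alone, so these 3 genes had to differ once tested and their tests are given as description. Among the other 20 members tested, 4 were higher DEGs (20%) and 5 lower DEGs (25%), 7 rose and 6 fell. Of these 20, CDH3 and CDH23 were past the filter level (0.682 CPM) in 3 shNUF2 libraries but in 1 and 2 shNC libraries. CDH16 was past it in 3 shNC but 2 shNUF2 libraries. The filter asked for 3 libraries, so CDH3, CDH23 and CDH16 would not have been tested without the group where they were higher. Either rise or fall was seen for 67.6% of all genes tested. Every shNUF2 library was above every shNC library for 10 members and below for 7, where the same held for 35.2% and 35.4% of all genes tested, 70.6% in either direction. The median log2 fold change of the members tested was 0.06, beside -0.01 over all genes.

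The direction of the calls differed in count between kinds of gene, and that difference was not tested. Leaving out CDH15, CDH5 and PCDHB11, 4 of 15 genes tested outside the protocadherin clusters were higher DEGs (26.7%, beside 9.41% of all genes) and 1 was a lower DEG (6.67%, beside 4.16%), with a median log2 fold change of 0.22. CDH3 and CDH23 are among those 4 and CDH16 is the lower DEG, with the limit of the filter given above. Inside the clusters, 0 of 5 were higher DEGs and 4 were lower DEGs (80%, beside 4.16%), with a median of -1.28. Fitted to log2(FPKM + 1) by limma, 0 members were DEGs in either direction, and with a pseudocount of 0.1 there were 4 higher and 4 lower, the pseudocount of 1 being above the FPKM of most of these genes.

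**Figure D1:**
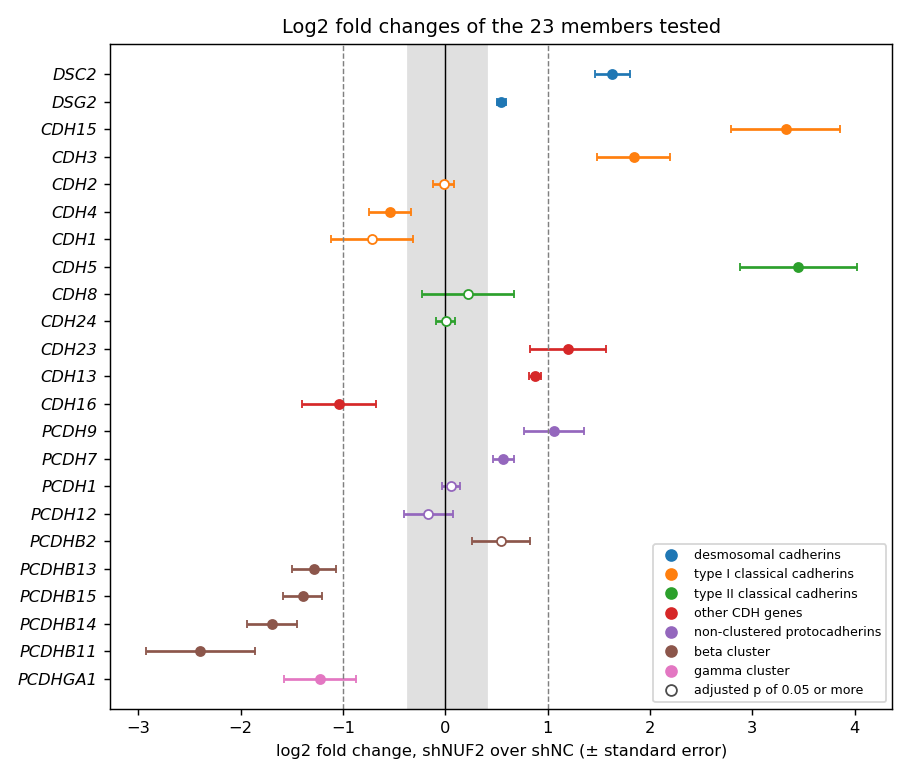
Log2 fold change (shNUF2 over shNC, ± standard error) of the 23 genes tested, coloured by kind of cadherin, with filled circles for an adjusted p under 0.05, a grey band for the interquartile range of all genes (-0.36 to 0.41) and dashed lines at -1 and 1. PCDHB11, PCDHB13, PCDHB14, PCDHB15, PCDHGA1 and CDH16 lie below -1, while DSC2, CDH15, CDH3, CDH5, CDH23 and PCDH9 lie above 1.

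Promoters of 4 tested protocadherins of the beta cluster are shown first, because 3 genes that fell (PCDHB13, PCDHB14 and PCDHB15) and PCDHB2, which did not, carry the same short element. PCDHB11 had no matched promoter. The sequences are RefSeq's for GRCh38.p14, in windows set by RefSeq's gene starts on the plus strand of chromosome 5, and a promoter was matched for 76 of the 96 members. They span chr5:141094365-141094664 for PCDHB2, chr5:141213669-141213968 for PCDHB13, chr5:141223093-141223392 for PCDHB14 and chr5:141245145-141245444 for PCDHB15. The starts in the deposited table can differ, and that of PCDHB14, at 141222932, lies before its window. Capitals mark GGTGGCGCT, the longest run shared by these 4 promoters.
PCDHB2: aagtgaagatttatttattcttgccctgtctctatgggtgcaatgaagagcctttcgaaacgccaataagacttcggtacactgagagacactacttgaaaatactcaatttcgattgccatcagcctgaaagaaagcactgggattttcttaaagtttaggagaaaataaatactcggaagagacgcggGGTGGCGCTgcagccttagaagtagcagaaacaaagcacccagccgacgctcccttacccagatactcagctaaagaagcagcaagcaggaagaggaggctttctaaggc
PCDHB13: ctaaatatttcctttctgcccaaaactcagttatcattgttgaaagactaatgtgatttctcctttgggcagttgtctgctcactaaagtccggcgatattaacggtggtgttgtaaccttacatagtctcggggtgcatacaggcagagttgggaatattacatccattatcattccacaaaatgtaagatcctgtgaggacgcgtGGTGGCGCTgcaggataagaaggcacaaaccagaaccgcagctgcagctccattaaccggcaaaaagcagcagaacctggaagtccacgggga
PCDHB14: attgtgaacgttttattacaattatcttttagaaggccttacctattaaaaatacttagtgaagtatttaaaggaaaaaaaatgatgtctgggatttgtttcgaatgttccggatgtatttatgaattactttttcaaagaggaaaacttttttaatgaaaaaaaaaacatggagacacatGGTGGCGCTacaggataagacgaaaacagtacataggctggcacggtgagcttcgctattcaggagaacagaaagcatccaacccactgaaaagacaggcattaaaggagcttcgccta
PCDHB15: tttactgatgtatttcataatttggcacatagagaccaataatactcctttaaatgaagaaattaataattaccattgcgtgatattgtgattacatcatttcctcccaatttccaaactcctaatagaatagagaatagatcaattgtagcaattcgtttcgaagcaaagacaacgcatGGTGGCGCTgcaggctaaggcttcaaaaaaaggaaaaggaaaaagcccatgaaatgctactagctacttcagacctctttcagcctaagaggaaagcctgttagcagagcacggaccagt
The run ended in CGCT, the core letters of the conserved sequence element known from clustered protocadherin promoters. On either strand it was found in 13 of the 14 beta cluster promoters, in 0 promoters of other members and in 143 of 27305 promoters (0.524%). CGCT alone was in 69.4% of all promoters and so marked little. Since the run was found as what these 4 promoters share, it cannot tell PCDHB2 from the genes that fell.

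The desmosomal cadherins expressed in these cells were both higher with shNUF2. DSG2 (ENSG00000046604, chromosome 18), the desmoglein of simple epithelia, had the highest level of all members, 38.1 ± 0.864 FPKM with shNC and 54.3 ± 1.61 FPKM with shNUF2 (SD, n = 3), and 53.7 to 58.7% of all member reads. Its normalised read counts were 234.3, 221.6 and 227.3 CPM with shNC and 329.3, 326.0 and 344.0 CPM with shNUF2. The groups lay far apart, and the log2 fold change was 0.55 (SE 0.04, edgeR adjusted p = 1.3e-11), so DSG2 rose without reaching the DEG threshold. DSC2 (ENSG00000134755), its desmocollin partner, had 58, 56 and 76 reads in the shNC libraries against 197, 167 and 149 in the shNUF2 libraries. That was 4.08, 3.504 and 4.418 CPM against 14.62, 12.85 and 9.907 CPM, a ratio of 3.11 and a log2 fold change of 1.63 (SE 0.17, edgeR adjusted p = 4.73e-09).

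The other desmosomal cadherins were near or at 0. DSC3, which is known from stratified epithelia, had 3 to 9 reads a library and a ratio of 0.825 over the summed reads (95% counting interval 0.371 to 1.78). DSG1 and DSG3 had 3 reads each over all libraries, and DSC1 and DSG4 had 0 reads, which allows up to 3 reads over each group. The desmosomal genes lie in a row on chromosome 18 in the order DSC3, DSC2, DSC1, DSG1, DSG4, DSG3 and DSG2, and the pair that was expressed was 396 kb apart. Their promoters are printed because RNA of SNAI and ZEB genes, whose proteins bind the E-box CACCTG, was higher with shNUF2. Capitals mark CACCTG on either strand, in the RefSeq windows chr18:31102372-31102671 (minus strand) and chr18:31497927-31498226 (plus strand) of GRCh38.p14.
DSC2: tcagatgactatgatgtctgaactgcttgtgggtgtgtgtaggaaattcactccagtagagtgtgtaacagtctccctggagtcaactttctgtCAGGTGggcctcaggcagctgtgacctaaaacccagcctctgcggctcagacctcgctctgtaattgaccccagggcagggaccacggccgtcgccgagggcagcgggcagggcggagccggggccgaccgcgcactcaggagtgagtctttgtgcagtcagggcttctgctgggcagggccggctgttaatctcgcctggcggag
DSG2: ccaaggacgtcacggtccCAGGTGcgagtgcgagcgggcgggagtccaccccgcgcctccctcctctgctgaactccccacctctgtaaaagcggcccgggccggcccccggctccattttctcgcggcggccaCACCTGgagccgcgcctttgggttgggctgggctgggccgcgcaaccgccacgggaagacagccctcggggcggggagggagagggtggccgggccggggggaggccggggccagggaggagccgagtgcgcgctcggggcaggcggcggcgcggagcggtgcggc
DSC2 held 1 match and DSG2 held 2, and CACCTG was in 10 of the 76 member promoters and in 20.6% of all promoters. Whether SNAI or ZEB proteins bind these promoters or change these genes was not tested.

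Among the type I classical cadherins, the classic switch genes CDH1 and CDH2 did not pass the test, while CDH3 rose, CDH4 fell and CDH15 was read almost only with shNUF2. CDH2 (N-cadherin, ENSG00000170558) had 18.64, 17.71 and 16.92 CPM with shNC and 18.1, 16.77 and 17.75 CPM with shNUF2, a log2 fold change of -0.02 (SE 0.10, edgeR adjusted p = 0.904). CDH1 (E-cadherin, ENSG00000039068) was scarce in every library, with 14, 33 and 19 reads against 14, 9 and 12. Its groups overlapped, and its log2 fold change was -0.72 (SE 0.40, edgeR adjusted p = 0.118), so it did not pass the test.

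CDH3 (P-cadherin, ENSG00000062038) starts upstream of CDH1 on chromosome 16, with 14.7 kb between the genes. It had 8, 20 and 11 reads in the shNC libraries against 54, 32 and 37 in the shNUF2 libraries. Every shNUF2 library was above every shNC library, and the log2 fold change was 1.84 (SE 0.36, edgeR adjusted p = 5.79e-05). Only 1 shNC library was past the filter level, so the test of CDH3 leaned on the shNUF2 libraries. CDH15 (M-cadherin, ENSG00000129910), known from skeletal muscle, had 2, 1 and 5 reads against 19, 32 and 22, a ratio of 10.4 over the summed reads (95% counting interval 5.02 to 25). As for any gene that passed the filter through 1 group, its fitted log2 fold change of 3.33 (SE 0.53), and of 4.03 without shNC replicate 3, is a description. CDH4 (R-cadherin, ENSG00000179242) had 80, 98 and 85 reads against 41, 55 and 63, with no overlap in CPM, and fell by 0.54 on the log2 scale (SE 0.20, edgeR adjusted p = 0.0222). The adjusted p of CDH4 was 0.0885 without shNC replicate 2 and 0.109 without shNUF2 replicate 1.

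**Figure D2:**
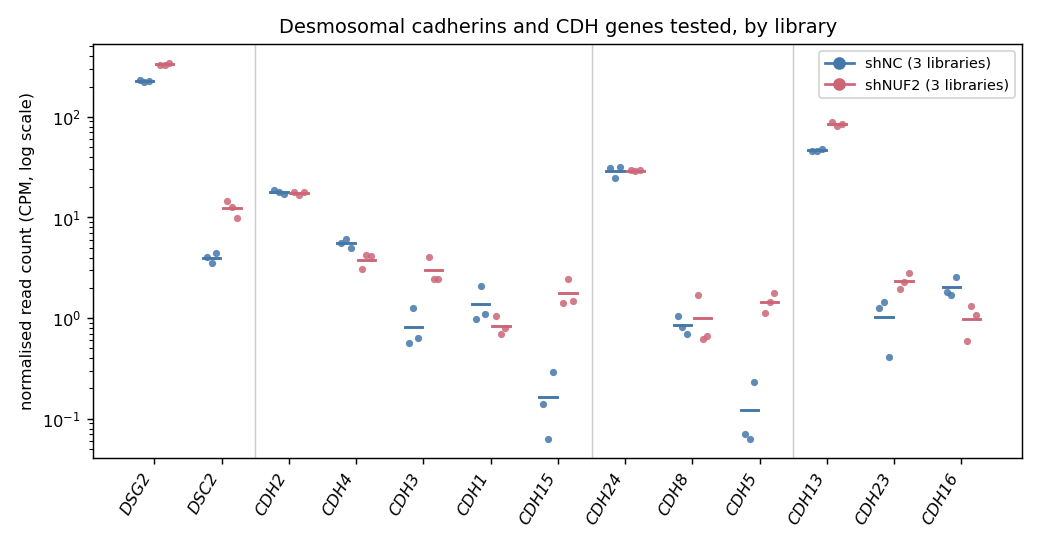
Normalised read counts (CPM, log scale) of the desmosomal cadherins and CDH genes tested, 1 point per library and a bar at the group mean, for shNC and shNUF2. DSG2 is the highest at 221.6 to 344.0 CPM, CDH2 and CDH24 overlap between the groups, and CDH15 and CDH5 lie under 0.3 CPM with shNC and over 1 with shNUF2.

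Of the 13 type II cadherins, 3 were tested, and CDH24 and CDH8 did not pass the test. CDH5 (VE-cadherin, ENSG00000179776), the cadherin of endothelial junctions, had 1, 1 and 4 reads in the shNC libraries against 15, 19 and 27 in the shNUF2 libraries, a ratio of 11.6 over the summed reads (95% counting interval 5.04 to 32.9). The fitted log2 fold change was 3.45 (SE 0.57) and was 4.29 without shNC replicate 3, a description, as the gene entered the test through its shNUF2 libraries. Its level stayed low, at 0.237 ± 0.0565 FPKM with shNUF2 (SD, n = 3). The summed level of 7 endothelial markers was 7.7 to 10.5 CPM in the shNC libraries and 25.3 to 31.6 CPM in the shNUF2 libraries. That sum was mostly ESAM, with means of 6.32 and 23.5 CPM. Of these 7 markers, ESAM (88 to 109 against 307 to 342 reads) rose. TEK (1 to 6 against 15 to 19 reads) passed the filter through the shNUF2 libraries alone, so its higher level is a description. PECAM1 had 24 to 49 reads in every library with overlapping groups, and KDR, EMCN, VWF and CLDN5 had 0 to 6 reads. KDR and EMCN had 0 reads in 5 of the 6 libraries. Because the RNA came from bulk cells, more cells of a type and more RNA per cell cannot be told apart. Immune markers had summed levels of 1.83 to 2.94 CPM with shNC and 4.9 to 7.46 CPM with shNUF2, while the sums of the fibroblast markers (84.3 to 90.9 against 70.9 to 79.6 CPM) and of the neural markers (49.6 to 56.3 against 39.2 to 46.3 CPM) were lower. Those sums were mostly COL1A1 and SNAP25, which fell. Of 4 fibroblast markers tested, DCN (log2 fold change 1.22) rose. FAP (3.05) passed the filter through the shNUF2 libraries alone, so its value is a description. COL3A1 had 0 to 2 reads with shNC and 5 to 15 with shNUF2, and PDGFRA had 0 reads in every library. Of 4 neural markers tested, SYT1 rose by 0.81 on the log2 scale, and STMN2 had 0 reads in every library. The summed epithelial markers were at 1560 to 1650 CPM with shNC and 1730 to 1840 CPM with shNUF2, and of the 8 tested 5 rose, with KRT8 (1.04) and CLDN4 (1.14) as DEGs on the log2 scale, and 3 fell, among them MUC16 (-0.75) and MSLN (-0.75). The part of these marker levels in the cadherin changes was not tested.

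CDH24 (ENSG00000139880), a type II cadherin that binds catenins, was second among all members per length in both groups, at 7.87 ± 0.962 FPKM with shNC and 7.69 ± 0.0626 FPKM with shNUF2 (SD, n = 3). Its log2 fold change was 0.01 (SE 0.09), with a sign that turned with the scaling of the libraries. CDH8, a cadherin of the nervous system, had 15, 13 and 12 reads against 23, 8 and 10, a log2 fold change of 0.22 (SE 0.45). Under the filter, CDH6 had 0 reads in every library, and CDH10 had 0 reads with shNC and 11 with shNUF2. That was 4.19-fold higher when set against 3 reads over the shNC group, a value that leaves out the counting error of the 11. CDH12, also under the filter, had 8 and 29 reads, of which 21 came from shNUF2 replicate 3 alone. These 3 genes were chosen after their values were seen.

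The remaining CDH genes differ in build from the classical ones. CDH13 (T-cadherin, ENSG00000140945), which is held at the membrane by a lipid anchor and lacks a cytoplasmic tail, had 45.72, 46.18 and 47.49 CPM with shNC and 89.33, 81.64 and 84.78 CPM with shNUF2. The separation was wide and the replicates close, with a ratio of 1.83 and a log2 fold change of 0.88 (SE 0.06, edgeR adjusted p = 5.41e-13), so CDH13 rose just short of the DEG threshold. CDH23 (ENSG00000107736), part of the tip link of hair cells, had 18, 23 and 7 reads against 26, 30 and 42, a log2 fold change of 1.20 (SE 0.37, edgeR adjusted p = 0.00598). CDH16 (ENSG00000166589), the kidney-specific cadherin, had 26, 27 and 44 reads against 8, 17 and 16 and fell by 1.04 on the log2 scale (SE 0.36, edgeR adjusted p = 0.0127). The calls of CDH23 and CDH16 rested on single libraries. CDH23 was past the filter level in 2 shNC libraries and CDH16 in 2 shNUF2 libraries, fewer than the filter asked for. Without shNC replicate 3, CDH23 had a log2 fold change of 0.79 (adjusted p = 0.0599 by edgeR) and CDH16 one of -0.83 (adjusted p = 0.085), and without shNUF2 replicate 1, CDH16 had one of -0.78 (adjusted p = 0.0768).

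Of the 13 non-clustered protocadherins, 4 were tested, 2 rose (50%, beside 33.9% of all genes) and 0 fell (beside 33.8%). PCDH7 (ENSG00000169851), which has been studied in several carcinomas, had 16.39, 15.96 and 15.17 CPM with shNC and 21.96, 21.62 and 26.6 CPM with shNUF2, a log2 fold change of 0.57 (SE 0.11, edgeR adjusted p = 3.26e-05). PCDH9 (ENSG00000184226) had 20, 26 and 23 reads against 49, 42 and 35, without overlap in CPM, and a log2 fold change of 1.06 (SE 0.29, edgeR adjusted p = 0.00226). It was no longer past the fold threshold without shNC replicate 3 or without shNUF2 replicate 1, with a lowest log2 fold change of 0.92. PCDH1 (ENSG00000156453), which ranked above CDH13 per length with shNC and below it with shNUF2, had 27.86, 29.47 and 32.2 CPM against 35.24, 28.47 and 29.52 CPM. Its groups overlapped and its log2 fold change was 0.06 (SE 0.09). PCDH12, also known as VE-cadherin-2 for its place in endothelial cells, had 44, 59 and 55 reads against 39, 41 and 43, a log2 fold change of -0.17 (SE 0.24, edgeR adjusted p = 0.544), and its groups overlapped.

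The clustered protocadherins make up 53 of the 96 members. In the beta cluster, the genes with enough reads to be tested were PCDHB2 near its start and PCDHB11, PCDHB13, PCDHB14 and PCDHB15 at its end, and PCDHB13, PCDHB14 and PCDHB15 fell. PCDHB15 (ENSG00000113248) had 141, 153 and 152 reads in the shNC libraries against 33, 57 and 59 in the shNUF2 libraries, a mean of 9.44 ± 0.553 CPM against 3.59 ± 1.01 CPM. Its log2 fold change was -1.39 (SE 0.19, edgeR adjusted p = 4.04e-07), and every shNUF2 library was below every shNC library. PCDHB13 (ENSG00000187372) had 100, 124 and 113 reads against 33, 30 and 59, a log2 fold change of -1.28 (SE 0.21, edgeR adjusted p = 7.31e-06). PCDHB14 (ENSG00000120327) had 109, 88 and 85 reads against 29, 19 and 29, a log2 fold change of -1.69 (SE 0.25, edgeR adjusted p = 1.09e-06). These 3 genes did not overlap between the groups. PCDHB11 (ENSG00000197479), with 29, 13 and 25 reads against 2, 2 and 7, had a fitted log2 fold change of -2.39 (SE 0.54), a description, as it entered the test through its shNC libraries. Without shNUF2 replicate 3, that value was -3.17.

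PCDHB2 (ENSG00000112852) went the other way in value. It had 19, 39 and 37 reads in the shNC libraries against 34, 37 and 50 in the shNUF2 libraries, which in CPM did not overlap (1.337 to 2.44 against 2.523 to 3.325), but its log2 fold change of 0.54 (SE 0.28) missed the threshold (edgeR adjusted p = 0.0912). PCDHB2 and PCDHB11 are 101 kb apart, and PCDHB11 and PCDHB15 are 41.6 kb apart. Of the 11 beta cluster genes under the filter, PCDHB12, which lies between PCDHB11 and PCDHB13, had 31 reads with shNC and 23 with shNUF2, a ratio of 0.847 (95% counting interval 0.472 to 1.5), beside 0.187 (0.0893 to 0.357) for PCDHB11 and 0.413 (0.333 to 0.51) for PCDHB13. PCDHB10, on the other side of PCDHB11, had 24 and 9 reads, a ratio of 0.428 (0.175 to 0.954). PCDHB12 and PCDHB10 were chosen after their values were seen.

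**Figure D3:**
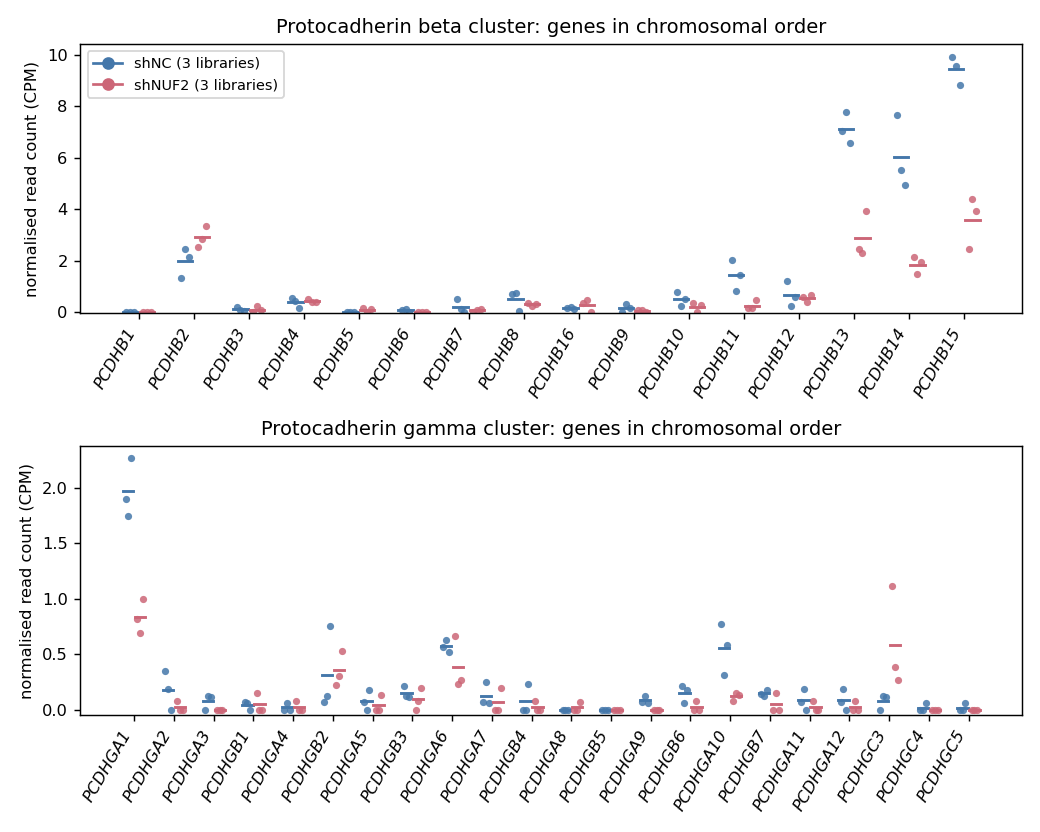
Normalised read counts (CPM) of the beta cluster genes (upper panel) and gamma cluster genes (lower panel) in chromosomal order, 1 point per library and a bar at the group mean, for shNC and shNUF2. With shNC the highest genes are PCDHB13, PCDHB14 and PCDHB15 at the end of the beta cluster and PCDHGA1 at the start of the gamma cluster, each lower with shNUF2, while PCDHB2 has a mean of 1.98 CPM with shNC and 2.90 CPM with shNUF2.

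The first gene of the next cluster also fell. PCDHGA1 (ENSG00000204956), 81.2 kb after PCDHB15, had 27, 28 and 39 reads in the shNC libraries against 11, 9 and 15 in the shNUF2 libraries. Its groups did not overlap, and its log2 fold change was -1.23 (SE 0.35, edgeR adjusted p = 0.00333). The genes that followed in read count were PCDHGA6 with 27 and 16 reads, a ratio of 0.677 (95% counting interval 0.341 to 1.3), PCDHGA10 with 26 and 5 reads, a ratio of 0.22 (0.0658 to 0.581), and PCDHGB2 with 16 and 15 reads, a ratio of 1.07 (0.493 to 2.31). PCDHGC3, near the far end of the gamma cluster, had 4 and 24 reads, a ratio of 6.85 (2.35 to 27.2), of which 15 came from shNUF2 replicate 1, and it was chosen after its values were seen. In the alpha cluster, PCDHA11 and PCDHA12 had the most reads, 5 each over all libraries, PCDHAC2 had 4, and no gene was tested.

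Summed over each cluster, which is less open to reads being split between similar genes, the beta cluster had 28.8 ± 3.26 CPM with shNC and 13.6 ± 1.77 CPM with shNUF2 (SD, n = 3), a ratio of 0.472. The gamma cluster had 4.85 ± 0.541 CPM and 2.76 ± 0.593 CPM, a ratio of 0.57. In both clusters the groups did not overlap, with an exact two-sided permutation p of 0.10, the smallest that 3 against 3 libraries allow. The alpha cluster had 7, 6 and 1 reads against 4, 1 and 6 (exact permutation p = 0.8). Leaving out each library in turn kept the log2 ratio of the beta cluster between -1.194 and -0.998 and that of the gamma cluster between -0.97 and -0.66.

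The counting bears on these clusters. Beta cluster genes consist almost wholly of exons of their own in GENCODE release 29 (90.6 to 100% of their exonic bases), whereas a gamma cluster gene shares its last exons with the others, and 35.6 to 72.4% of its exonic bases were its own. The deposited length of PCDHGA1, 6252 bases, is the sum of its own and shared exons, so that its FPKM understates its level if reads in shared exons were dropped. How the authors treated reads that match several genes, and the strand setting of the count, were not given in the sources used here. Genes of other families, named here for their position, changed in both directions around the clusters. TAF7, a general transcription factor gene between the beta and gamma clusters on the opposite strand, rose with a log2 fold change of 0.30 (SE 0.05, edgeR adjusted p = 1.74e-06). DIAPH1, which lies after the gamma cluster, rose by 0.33 and ZMAT2, before the alpha cluster, fell by 0.17 on the log2 scale.

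The partners of the cadherins were counted in lists of 84 genes, of which 73 were tested. Of these, 10 were higher DEGs and 2 were lower DEGs, shares of 13.7% and 2.74% beside 9.41% and 4.16% of all genes. The 10 include SNAI3, which passed the filter on low counts through the shNUF2 libraries alone and had to differ once tested. In all, 31 rose (42.5%, beside 33.9% of all genes) and 20 fell (27.4%, beside 33.8%), with a median log2 fold change of 0.11. Among the 17 adherens junction partners tested, 9 rose (52.9%, beside 33.9% of all genes) and 4 fell (23.5%, beside 33.8%). CTNNA1 (alpha-catenin), with 411.3 to 428.9 CPM against 635.0 to 656.8 CPM, rose with a log2 fold change of 0.62 (SE 0.04, edgeR adjusted p = 3.38e-13). CTNNB1 (beta-catenin) rose by 0.35 (SE 0.04), while CTNND1 (p120-catenin) had a log2 fold change of 0.29 (edgeR adjusted p = 0.112, and 0.046 without shNC replicate 1). The DEGs of the list were NECTIN1 (1.50, SE 0.15) and NECTIN4 (1.33, SE 0.18), immunoglobulin-like adhesion molecules of the same junction, and AJUBA (-1.05, SE 0.05), a LIM protein that binds alpha-catenin.

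In the desmosomal plaque, 3 of 8 genes tested rose (37.5%, near the 33.9% of all genes) and 1 fell (12.5%, beside 33.8%). PKP2 (plakophilin 2), the plakophilin of simple epithelia, had 14.56, 14.77 and 13.78 CPM with shNC and 33.83, 32.16 and 29.12 CPM with shNUF2. It was the DEG of the list, with a log2 fold change of 1.14 (SE 0.10, edgeR adjusted p = 6.4e-11). DSP (desmoplakin) rose by 0.45 (SE 0.05) and PERP, a desmosomal membrane protein, by 0.57 (SE 0.04), whereas JUP (plakoglobin), shared with the adherens junction, had a log2 fold change of -0.02 (SE 0.04, edgeR adjusted p = 0.593). PKP4, a relative of p120-catenin, fell by 0.75. Of the 14 genes for cleavage and traffic of cadherins, 8 rose (57.1%, beside 33.9% of all genes), 2 fell (14.3%, beside 33.8%) and 0 were DEGs by edgeR.

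Of the 9 repressors of cadherin genes, 7 rose (77.8%, beside 33.9% of all genes) and 0 fell (beside 33.8%), and 5 were higher DEGs (55.6%, beside 9.41%). The 7 and the 5 include SNAI3, which had 0.465 to 0.5006 CPM with shNC, under the filter level of 0.682, and so had to differ once tested. SNAI2 (Slug), which represses E-cadherin through E-boxes, had 11.82, 15.08 and 14.65 CPM with shNC and 54.16, 50.47 and 48.34 CPM with shNUF2. Its groups were far apart, with a log2 fold change of 1.87 (SE 0.09, edgeR adjusted p = 9.08e-16). SNAI1 (1.33, SE 0.12), ZEB2 (1.36, SE 0.10) and TWIST1 (1.02, SE 0.26) were further DEGs on the log2 scale. SNAI3 had 7 to 8 reads against 16 to 21 and passed the filter through the shNUF2 libraries alone. Its fitted log2 fold change of 1.46 (SE 0.42) is a description. TWIST1 was under the fold threshold without shNC replicate 3 (0.84) and without shNUF2 replicate 3 (0.89). ZEB1 rose by 0.71 (SE 0.06). CDH1, which was scarce already with shNC, and CDH2 did not pass the test in the same libraries, and CDH3, DSC2 and DSG2 rose in them. The part of the repressors in the levels of these genes was not tested.

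Among the 15 regulators of the protocadherin clusters, 1 rose (6.67%, beside 33.9% of all genes) and 9 fell (60%, beside 33.8%), with a median log2 fold change of -0.22, and edgeR gave 0 DEGs (beside 13.6% of all genes in either direction). CTCF, which binds the clustered promoters and their enhancers, had 71.12, 75.84 and 75.34 CPM with shNC and 54.38, 53.63 and 51.33 CPM with shNUF2. It fell by 0.48 on the log2 scale (SE 0.06, edgeR adjusted p = 5.05e-08). The cohesin-associated PDS5A fell by 0.63, and the cohesin subunits STAG1 and SMC1A fell by 0.53 and 0.34, while the subunits RAD21, SMC3 and STAG2 had log2 fold changes of -0.05, -0.02 and 0.05 and did not pass the test. SMCHD1, which silences clustered protocadherins, fell by 0.22, and DNMT3B, the methyltransferase that acts on their promoters, rose by 0.71. The part of these genes in the lower levels of PCDHB13, PCDHB14 and PCDHB15 was not tested.

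**Figure D4:**
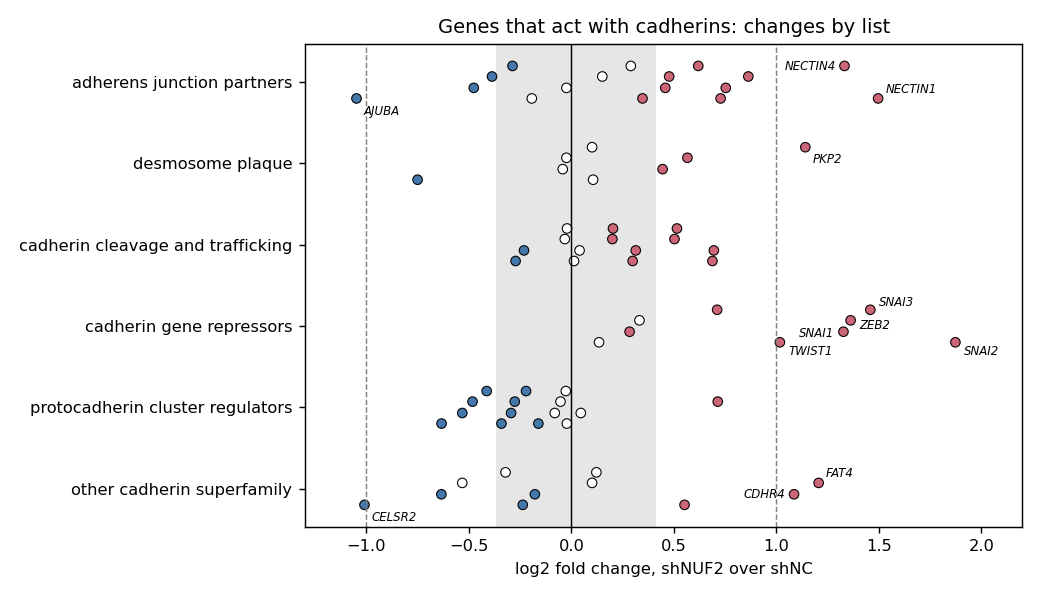
Log2 fold change (shNUF2 over shNC) of each tested gene of the 6 partner lists, 1 point per gene, red for genes that rose, blue for genes that fell and open for neither, with DEGs named, the interquartile range of all genes in grey (-0.36 to 0.41) and dashed lines at -1 and 1. Repressors of cadherin genes lie to the right, up to 1.87 for SNAI2, and regulators of the protocadherin clusters lie mostly left of 0.

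Of the 18 other genes of the cadherin superfamily, 11 were tested, 3 rose (27.3%) and 4 fell (36.4%), shares near the 33.9% and 33.8% of all genes. FAT4, a giant atypical cadherin of planar polarity, had 12.73, 12.58 and 11.1 CPM with shNC and 28.71, 26.01 and 29.06 CPM with shNUF2, a log2 fold change of 1.21 (SE 0.10, edgeR adjusted p = 7.23e-11). CELSR2, a cadherin with a membrane-spanning receptor domain, had 90.18, 89.8 and 87.89 CPM against 43.48, 46.94 and 42.75 CPM and fell by 1.01 on the log2 scale (SE 0.06, edgeR adjusted p = 2.72e-14). It was under the fold threshold without shNUF2 replicate 1 (-0.996) and without shNUF2 replicate 3 (-0.983). CDHR4 had 6, 5 and 13 reads against 12, 13 and 20, and its log2 fold change of 1.09 (edgeR adjusted p = 0.039) had an adjusted p of up to 0.159 when a library was left out. With shNC it had 0.4221, 0.3129 and 0.7557 CPM beside a filter level of 0.682, so its test leaned on the shNUF2 libraries. DCHS1, which binds FAT4 on the neighbouring cell, was under the filter, with 0, 0 and 1 reads against 9, 13 and 18, a ratio of 45.7 (95% counting interval 7.74 to 1850), and it was named after its values were seen.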

How the data were processed

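RNA-seq was done in OVCAR3 cells with shNC (3 libraries) and shNUF2 (3 libraries), grouped by the sample titles. Libraries were made with a stranded mRNA kit and sequenced on an Illumina NovaSeq instrument. The submitters' processing notes name cutadapt, HISAT and HTSeq, whose versions and settings are not given in the sources used here, and the build GRCh38.p13. The authors deposited raw read counts per gene for 19973 genes. The authors also deposited FPKM values, which divide the counts by gene length and library total, and positions and gene lengths.

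Counts were tested with edgeR 4.0.16 (R 4.3.3) with filterByExpr, TMM scaling and the quasi-likelihood test on all 6 libraries without covariates, 12874 genes tested, and Benjamini-Hochberg adjustment over them. A DEG had a log2 fold change beyond 1 with p under 0.05, and genes rose or fell at an adjusted p under 0.05. A standard error is the log2 fold change over the square root of F. On simulated counts, the scripts were tested with 200 changed genes. Ratios of summed reads carry exact 95% intervals, which cover counting error only. DESeq2 1.42.0, limma 3.58.1, other scalings, filters, a replicate block and leaving out libraries were the alternatives. Libraries of a group differed by more than sampling noise (chi-square per degree of freedom 2.64 to 4.31), so none was treated as a copy of another, and whether their spread is technical is not known.

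The members and lists were chosen with earlier results of these data known. Named by rule were every desmosomal and type I cadherin, other members called DEG, the 3 members with most reads among type II cadherins, non-clustered protocadherins and each cluster (ties included), CTNNA1, CTNNB1, CTNND1, JUP, DSP, partner genes called DEG, and NUF2. Other names follow from position, from pathway role or from values, which is not stated for each of them, CDH13 among these.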

Additional observations from a re-analysis of the deposited data

How the results depend on the processing

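With DESeq2 size factors, upper quartile scaling, library totals or the DESeq2 test in place of TMM and edgeR, the 6 higher and 6 lower DEGs among the members were the same genes. The shared replicate numbers did not pair the libraries (correlations of deviations 0.02, 0 and -0.03), and with a replicate block there were again 6 higher and 6 lower DEGs, with 9 members that rose and 7 that fell. Without a filter on low counts, 11 members were higher DEGs, the added genes being CDH10, CDH22, PCDH15, CDH12 and PCDHGC3, and 7 were lower DEGs, with PCDHGA10 added. With at least 1 CPM in every library 14 members were tested, of which 2 were higher and 3 lower DEGs and 5 rose and 4 fell. By limma on log2(FPKM + 1) there were 0 higher and 0 lower DEGs among the members, and among the partner genes 2 higher and 1 lower. A test of a change beyond the fold threshold left 4 higher and 2 lower DEGs among the members. With at least 1 CPM in every library, 1 partner gene was a lower DEG.

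Leaving out each library in turn gave 4 to 6 higher and 5 to 6 lower DEGs among the members, 8 to 9 that rose and 5 to 7 that fell, and 8 to 11 higher and 1 to 2 lower DEGs among the partner genes. CELSR2 and AJUBA lay close to the fold threshold, with log2 fold changes of -1.05 to -0.98 and of -1.09 to -1.01 over these fits. Signs turned for genes that were not called. CDH2 reached 0.007 with at least 1 CPM in every library and ranged from -0.055 to 0.016 without a library. CDH24 reached -0.002 with upper quartile scaling, -0.032 with library totals, -0.022 without a filter, and -0.023 and -0.025 by limma with pseudocounts of 1 and 0.1, and ranged from -0.099 to 0.059 without a library. CDH8 ranged from -0.398 to 0.458 and PCDH1 from -0.044 to 0.112 when a library was left out. The cause of these turns was not tested. Depth limited the 63 members under 10 reads in every library, for which a change could not be seen unless it was large.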
